A study of Drosophila melanogaster with 4 samples.

Results

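The tetraspanins are a family of small proteins that cross the membrane several times and gather integrins, proteases and adhesion proteins into patches of the cell surface and of endosomes. In Drosophila much of the family lies in 1 run of neighbouring genes on the second chromosome. The best known neural member, late bloomer (lbm), sits on the growth cones of motor axons and helps them form synapses on time. Other members act at smooth septate junctions of the gut (Tsp2A), on the Notch pathway through the protease Kuzbanian (the group of Tsp3A, Tsp26A and Tsp86D) and in lysosomes of photoreceptors (Tsp42Ej, also called sunglasses). The family was taken as every gene of the count tables whose symbol begins with Tsp and a digit, plus lbm, which gave 35 of 14240 genes.

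The study asked how neural stem cells (NSCs, called neuroblasts in the fly) differ between quiescence, when they rest at the end of embryogenesis, and reactivation in the young larva. All cells carried wor-GAL4 and UAS-mCD8-GFP, were sorted as GFP+ cells, and were profiled with 10x Genomics 3′ single-cell RNA-seq. There were 2 libraries from stage 17 embryos (quiescence) and 2 libraries from larval brains 24 h after larval hatching (24 h ALH, reactivation). No library was labelled as treated or mutant. The labels give brain as the tissue of all 4 libraries, whereas the study's methods name the brain for the larvae alone. The driver wor-GAL4 is an NSC driver, GFP persists in the progeny of an NSC, and the sort does not separate stem cells from neurons or from other GFP+ cells, so the classes below were found from the RNA. Stage 17 replicate 1 was made with v2 chemistry and the other 3 with v3, and cells were deeper at 24 h ALH. With cells thinned to 1000 UMIs the summed family level at stage 17 and 24 h ALH was 1520 and 439 CPM in NSC-like cells. In neuron-like cells it was 4216 and 1369 CPM. Thinning leaves the expected CPM of a cell unchanged, so these values cannot separate depth or chemistry from stage. Each fit was repeated with each library left out in turn.

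After filtering 3567 of 4152 called cells were kept, 409 and 1220 from stage 17 replicates 1 and 2 and 923 and 1015 from those of 24 h ALH, with 2049371, 12366916, 48942201 and 31743181 unique molecular identifiers (UMIs, 1 per captured transcript). The median cell held 3812 and 4861.5 UMIs at stage 17 and 48895 and 17791 UMIs at 24 h ALH. Cells were clustered without the tetraspanin genes, and clusters were named from marker genes. There were 53 NSC-like cells at stage 17 (28 and 25), 848 at 24 h ALH (513 and 335), and 1251 neuron-like, 180 progenitor-like, 135 glia-like, 94 cuticle and 29 muscle-like cells over both stages. The 94 cells named cuticle cells expressed cuticle genes such as Lcp65Ag2 and both the epidermal and the tracheal marker lists, while the tracheal genes trh and btl reached 5 to 6 and 0 to 1 UMIs per library, so epidermis and trachea could not be separated in them. A total of 13 cell barcodes were shared between libraries, and 1 neuron cluster of 99 cells came from stage 17 replicate 2 alone.

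Levels are given as CPM, the UMIs of a gene per 1000000 UMIs of a class in 1 library, in the order replicate 1 and replicate 2. A UMI table from 3′ ends does not scale with gene length, and no statement here ranks genes per length. Tests were edgeR quasi-likelihood tests on these sums, with Benjamini-Hochberg adjustment over all genes tested and a threshold of 0.05, and fold changes are on the log2 scale with their standard errors (SE). A replicate is 1 library, and 2 libraries a stage give p-values that measure only the spread between these libraries.

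The family gave 100231 UMIs in the kept cells. Late bloomer and the 17 genes of the Tsp42E group, which lie within 73.4 kb of chromosome arm 2R (6992676 to 7066113 in the dm6 genome, 15 on the plus and 3 on the minus strand, with 6 other protein-coding genes between them), gave 55316 UMIs, or 55.19%. Tsp42Ee gave 30518 UMIs, Tsp66E on arm 3L gave 20398 and lbm gave 7653, together 58.43% of the family. There were 13 members over 1000 UMIs, which held 95.96% of the total, and 11 members under 100 UMIs, which held 399 UMIs in all. Tsp66A and Tsp42Eb had no UMI. Tsp42Eb lies inside Tsp42Ea on the same strand, Tsp66A overlaps CG42660 and CG42661 on the same strand, and Tsp42Ej and Tsp42Ek overlap by 107 bases on the same strand, so reads from these stretches cannot be assigned to 1 gene.

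Summed over the family, glia-like, neuron-like, cuticle and NSC-like cells each held more tetraspanin RNA at stage 17 than at 24 h ALH, with no overlap between the libraries of the stages. Glia-like cells held 7713 and 5206 CPM of tetraspanin RNA at stage 17 and 979 and 812 CPM at 24 h ALH. Neuron-like cells held 5228 and 3620 CPM at stage 17 and 1421 and 1533 CPM at 24 h ALH. The NSC-like cells had the lowest mean of these 4 classes at both stages, with 2252 and 1439 CPM at stage 17 (1846 ± 575, SD, n = 2) and 448 and 431 CPM at 24 h ALH (439.6 ± 12.2). At 24 h ALH the NSC-like libraries lay below those of every other named class, whereas at stage 17 their range overlapped that of the cuticle cells (3293 and 2079 CPM). With single cells gated on markers, the 24 h ALH values of NSC-like cells (475.9 and 438.8 CPM) overlapped those of glia-like cells (474.3 and 443.7 CPM), and with cells thinned to 1000 UMIs (376.2 and 501.5 CPM) those of cuticle cells (363.6 and 666.7 CPM). Fewer molecules of a gene per cell and more RNA of other genes per cell cannot be told apart on this scale.

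**Figure D1:**
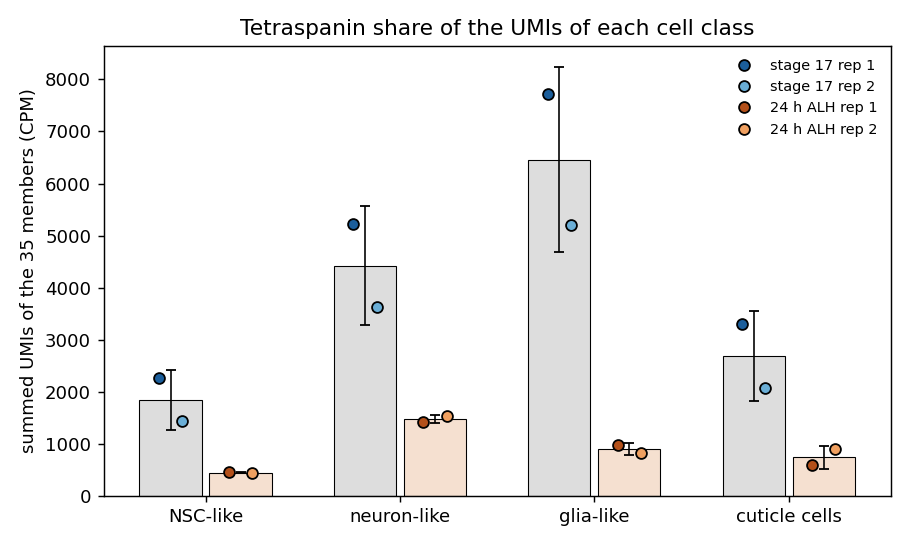
Summed level of the 35 tetraspanins in CPM (y axis, linear from 0) in 4 classes at stage 17 (grey bars) and 24 h ALH (orange bars). Each point is 1 library, a bar is the mean of 2 libraries and the error bar is the SD, and each class lies higher at stage 17, from 7713 and 5206 against 979 and 812 CPM in glia-like cells to 2252 and 1439 against 448 and 431 CPM in NSC-like cells.

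Members with few UMIs in NSC-like, neuron-like, glia-like and cuticle cells were not ranked. Among the ranked members at stage 17, 12 were highest by mean in neuron-like, 5 in glia-like, 3 in cuticle and 1 in NSC-like cells. The last was Tsp2A. Libraries of the highest class lay clear of those of the next class for 8, 3, 1 and 0 of these members. At 24 h ALH neuron-like cells were highest for 11 members, glia-like cells for 4 and cuticle cells for 3. There the libraries lay clear of the next class for 11, 1 and 1 of them. The share of all genes highest in each class is not given beside these counts. Tsp42Ee was the only ranked member whose highest mean at 24 h ALH was in NSC-like cells, and there the NSC-like and glia-like libraries overlapped. Of the members not ranked, Tsp42A and Tsp33B had UMIs of these classes at 24 h ALH in NSC-like cells alone (5 and 1).

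**Figure D2:**
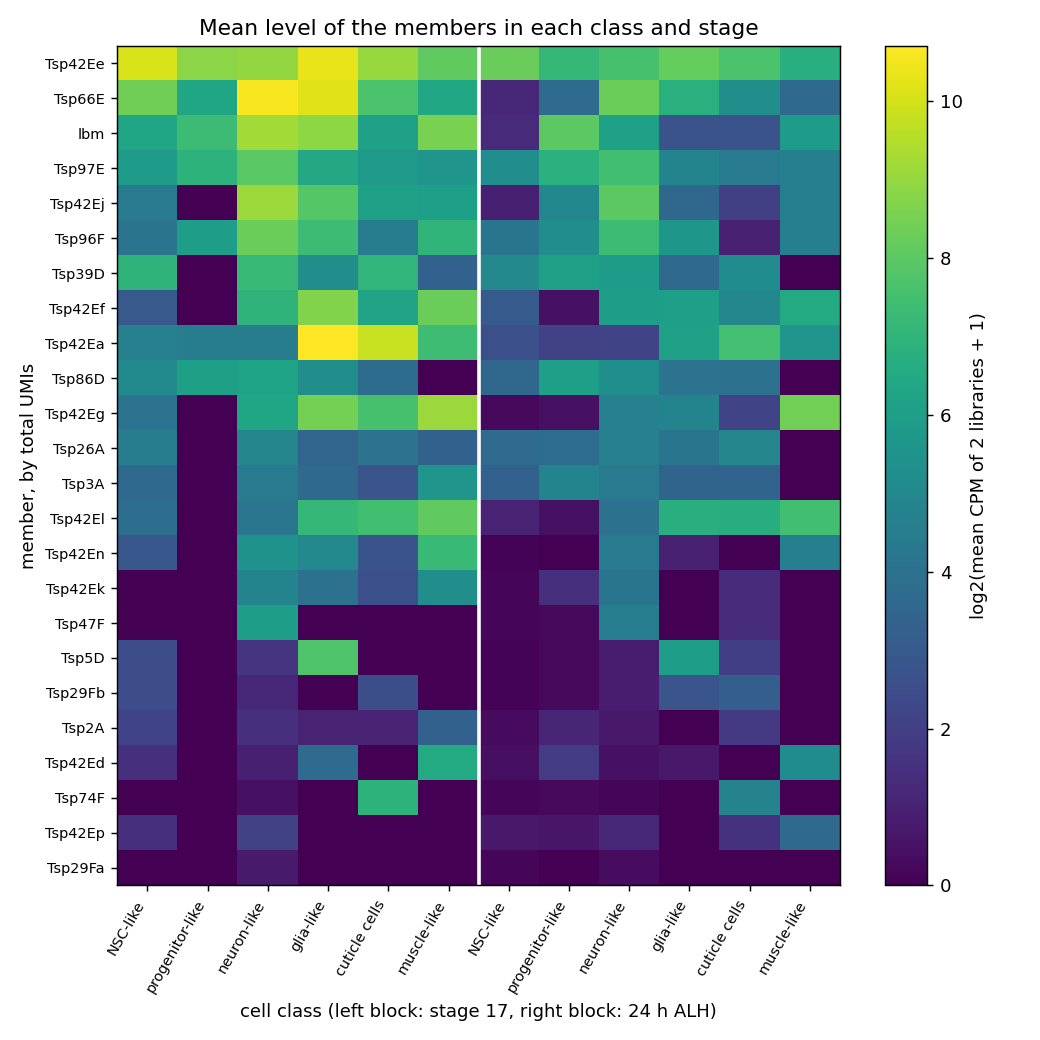
Heat map of the 24 members with the most UMIs (rows, ordered by UMIs) in 6 classes (columns, stage 17 left and 24 h ALH right of the white line), coloured by log2 of the mean CPM of 2 libraries plus 1. Tsp42Ee is present in every column, Tsp66E, Tsp42Ej, Tsp96F and Tsp97E are brightest in neuron-like cells, and Tsp74F is bright in cuticle cells alone, while the stage 17 progenitor-like column rests on 7 cells.

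In the NSC-like cells, quiescent against reactivated, 6 of the 13 members that passed the filter on low counts were higher at stage 17 and none was lower (edgeR adjusted p under 0.05). Over all 7253 genes tested in this comparison 36.0% were called, 18.2% higher and 17.8% lower at stage 17, and the median log2 difference was 1.52 over the members and -0.19 over all genes. The other 22 members were too low to test. Among the members called, Tsp42Ej passed the filter on low counts by its stage 17 levels. This can raise the members' median and the number called.

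Tsp42Ee, which overlaps genetically with lbm at the neuromuscular junction, had the most molecules of any member in the stem cells. It measured 1293 and 828 CPM at stage 17 (136 and 238 UMIs) and 309 and 294 CPM at 24 h ALH (11367 and 5908 UMIs). The stages did not overlap, and the log2 difference was 1.52 (SE 0.22, edgeR adjusted p = 0.0013).

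Tsp66E differed most between the stages. It measured 447 and 229 CPM at stage 17 (47 and 66 UMIs) and 1.09 and 1.64 CPM at 24 h ALH (40 and 33 UMIs in the 848 cells). The log2 difference was 7.61 (SE 0.36, edgeR adjusted p = 9.75e-06), with no overlap. The stage 17 molecules came from few cells, since 10 of 53 NSC-like cells held all 113 UMIs and 1 cell held 32 of them. Of these 10 cells, 9 also held dpn and 9 held wor, which mark NSCs, and 8 held the neuronal gene nSyb. Their median depth was 8274 UMIs against 2778 UMIs in the 43 cells without Tsp66E. At stage 17 a Tsp66E UMI was held by 1 of 11 and 2 of 10 muscle-like cells. Among NSC-like cells it was held by 5 of 28 and 5 of 25. The median depths were 880.0 and 3311 UMIs in muscle-like and 2292.5 and 3111 UMIs in NSC-like cells. The muscle-like levels of 76.2 and 90.7 CPM rest on few UMIs, and whether muscle cells lack Tsp66E was not tested. The level of Tsp66E was higher in the NSC-like cells in both stage 17 libraries, but in replicate 2 the share of cells with a UMI was not.

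Late bloomer was likewise low in reactivated stem cells. It measured 85.5 and 73.0 CPM at stage 17 (9 and 21 UMIs) and 1.44 and 1.34 CPM at 24 h ALH, a log2 difference of 5.56 (SE 0.47, edgeR adjusted p = 0.00015), with no overlap between stages. The 30 stage 17 UMIs came from 13 of the 53 cells. Tsp39D measured 152 and 93.9 CPM at stage 17 and 32.4 and 31.6 CPM at 24 h ALH, a log2 difference of 1.57 (SE 0.26, edgeR adjusted p = 0.0024). Tsp42Ej and Tsp42El differed by 4.55 (SE 0.81) and 3.52 (SE 0.82) on the log2 scale (edgeR adjusted p = 0.0035 and 0.012), but from 10 and 6 UMIs at stage 17. Tsp42Ej measured 9.5 and 31.3 CPM against 0.708 and 1.09 CPM, and Tsp42El 9.5 and 17.4 CPM against 1.17 and 1.04 CPM. Without stage 17 replicate 2 neither passed. Without 24 h ALH replicate 1, and likewise without 24 h ALH replicate 2, Tsp39D did not pass and 3 members were called in place of 6.

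Neuronal marker RNA moved with these values. The 9 neuronal markers summed to 1559 and 2747 CPM in stage 17 NSC-like cells and to 182 and 178 CPM at 24 h ALH, which was 8.97% and 12.9% of the level in neuron-like cells of the same library at stage 17, and 1.13% and 1.05% in the 24 h ALH libraries. On the same measure Tsp66E reached 24.5% and 17.3% at stage 17 but 0.368% and 0.489% at 24 h ALH, lbm reached 11.4% and 16.7% at stage 17, and Tsp42Ej reached 1.35% and 8.35%. Tsp39D reached 80.7% and 91.5%, and Tsp42Ee 234% and 185%. Taken 1 by 1, the 9 neuronal markers ranged from 3.45% to 76.3% in stage 17 replicate 1 and from 7.58% to 61.4% in replicate 2. Tsp66E and lbm lay within that range in both libraries, and Tsp42Ej lay below it in replicate 1 and within it in replicate 2. The part of neuronal RNA in the stage difference was not tested.

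In neuron-like cells 10 of 17 tested members were higher at stage 17 and none was lower, where 31.2% of all genes were called, 12.7% higher at stage 17 and 18.5% lower. The median difference of the members was 1.10 on the log2 scale, and that of all genes was 0.0024. Tsp42Ea, called here, passed the filter on low counts by its stage 17 levels, which can raise both the median and the count. Tsp66E measured 1821 and 1324 CPM at stage 17 and 296 and 336 CPM at 24 h ALH, a log2 difference of 2.41 (SE 0.23, edgeR adjusted p = 0.0062). For lbm the levels were 749 and 437 CPM at stage 17 and 54.7 and 82.9 CPM at 24 h ALH, a log2 difference of 3.18 (SE 0.36, edgeR adjusted p = 0.0071). Both genes separated the stages without overlap.

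Tsp42Ee in neurons was 552 and 448 CPM at stage 17 and 199 and 179.7 CPM at 24 h ALH, a log2 difference of 1.49 (SE 0.21, edgeR adjusted p = 0.0097). The lysosomal Tsp42Ej measured 704 and 375 CPM at stage 17 and 246 and 260.2 CPM at 24 h ALH, a difference of 1.17 (SE 0.30, edgeR adjusted p = 0.037). Tsp42Eg measured 76.9 and 79.4 CPM against 23.4 and 25.4 CPM, and Tsp42Ef 128 and 119.8 CPM against 56.6 and 68.7 CPM. The other called members were Tsp96F (337 and 289 against 169 and 152 CPM), Tsp39D (189 and 103 against 53.6 and 60.2 CPM), Tsp42Ea (17.8 and 26.6 against 6.47 and 0.802 CPM) and Tsp42Ek (29.6 and 24.6 against 16.4 and 17.7 CPM). Tsp97E, at 272 and 228 CPM against 158 and 190.2 CPM, did not pass. Leaving out 24 h ALH replicate 1, or replicate 2, left 4 members past the threshold (Tsp66E, lbm, Tsp42Eg and Tsp42Ea), and leaving out stage 17 replicate 1 or replicate 2 left 13 or 14, without Tsp42Ea. Tsp66E, lbm and Tsp42Eg passed in every alternative that was run.

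In glia-like cells 8 of 14 tested members were higher at stage 17 and none was lower, against 20.9% of genes called, 8.05% higher and 12.8% lower. The members' median log2 difference was 2.29 and that of all genes 0.0041. Among the members called, lbm, Tsp42Ej and Tsp42En had 7, 16 and 1 UMIs at 24 h ALH. They passed the filter on low counts by their stage 17 levels, which can raise the members' median and the number called. Tsp42Ea, which also overlaps genetically with lbm at the neuromuscular junction, measured 2299 and 1041 CPM at stage 17 and 83.2 and 56.5 CPM at 24 h ALH, a log2 difference of 4.43 (SE 0.50). For lbm the levels were 332 and 603 CPM at stage 17 and 5.80 and 5.38 CPM at 24 h ALH, a difference of 6.24 (SE 0.66). Tsp42Eg measured 355 and 345 CPM against 21.3 and 33.6 CPM, a difference of 3.51 (SE 0.49), and the edgeR adjusted p was 0.033 for all 8 members. In each of these the stages did not overlap.

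The other members called in glia-like cells were Tsp42Ee (1649 and 980.0 against 298 and 274 CPM), Tsp66E (1472 and 931 against 94.8 and 122 CPM), Tsp42Ef (458 and 363 against 67.7 and 61.9 CPM), Tsp42Ej (224 and 243 against 3.87 and 18.8 CPM) and Tsp42En. Tsp42En rested on 22 UMIs at stage 17 and 1 at 24 h ALH, a pooled ratio of 39.2 (95% counting interval 6.34 to 1619), and its levels were 32.7 and 30.4 against 1.93 and 0 CPM. The neuronal list summed to 3588 and 12937 CPM in glia-like cells at stage 17, 20.6% and 60.6% of the neuronal level, and to 1246 and 1626 CPM at 24 h ALH, 7.76% and 9.54%. The haemocyte list summed to 107 and 77.1 CPM at stage 17 and to 985 and 1007 CPM at 24 h ALH, and its defining gene Hml had 0, 0, 0 and 1 UMIs. The part of either in the stage difference was not tested. Without stage 17 replicate 1, and likewise without stage 17 replicate 2, no member passed, without 24 h ALH replicate 1 there were 4 and without 24 h ALH replicate 2 there were 6.

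Tsp42Ee, Tsp42Ej, Tsp66E and lbm were the 4 members called higher at stage 17 in NSC-like, neuron-like and glia-like cells alike, of 11 members tested in all 3, where 3.45% of the 4174 genes tested in all 3 were. In the cuticle cells none of 11 tested members passed by edgeR (0% of 3708 genes passed), although 10 of the 11 had an unadjusted p under 0.05, as did 32.9% of all genes, and DESeq2 called 4 of the members and 13.2% of the genes. Their median log2 difference was 2.57, that of all genes -0.04. Tested members such as lbm, Tsp42Ej and Tsp42Eg passed the filter on low counts by their stage 17 levels. This can raise the members' median and the number with a low unadjusted p.

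Whether the stage difference itself differed between stem cells and neurons was tested as an interaction over 20 members, of which 4 had a larger stage 17 excess in NSC-like cells and 1 a smaller one (17.4% of genes were called, 10.4% larger and 6.99% smaller). Tsp66E differed by 4.98 (SE 0.33, edgeR adjusted p = 5.93e-09) on the log2 scale, and lbm by 2.15 (SE 0.41, edgeR adjusted p = 0.00084). Tsp42Ej differed by 3.36 (SE 0.71) and Tsp42El by 3.47 (SE 1.01), while Tsp96F went the other way by -1.66 (SE 0.50). None of the 10 members tested passed by edgeR when each cell was thinned to 1000 UMIs. Without stage 17 replicate 2 there were 2 calls, Tsp66E among them, and lbm, Tsp42Ej, Tsp42El and Tsp96F did not pass. Without 24 h ALH replicate 2 there were 3, and lbm, Tsp42El and Tsp96F did not pass.

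Stem cells were next set against neurons of the same libraries. At stage 17, 12 of 20 tested members were lower in NSC-like cells and 1 was higher (45.3% of genes were called, 27.0% lower and 18.3% higher), and at 24 h ALH 16 were lower and 1 was higher (77.1% called, 36.6% lower and 40.5% higher). The median log2 difference of the members was -2.18 at stage 17 and -2.93 at 24 h ALH, and -0.29 and 0.07 over all genes.

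Tsp42Ee was the 1 member that was higher in stem cells. The log2 difference to neurons was 0.59 (SE 0.19, edgeR adjusted p = 0.013) at stage 17 and 0.81 (SE 0.17, edgeR adjusted p = 0.00027) at 24 h ALH, from the levels given above, with no overlap between classes at either stage. Its level in the progenitor-like cells of 24 h ALH, 132 and 148 CPM, lay below both classes. The call at stage 17 was lost without either 24 h ALH library, and that at 24 h ALH likewise.

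Among the members that were lower in stem cells, Tsp42Ej had the largest difference at 24 h ALH. It measured 0.708 and 1.09 CPM in NSC-like cells and 246 and 260.2 CPM in neurons, a log2 difference of -8.02 (SE 0.25). Tsp66E differed by -7.73 (SE 0.26) at 24 h ALH but by -2.75 (SE 0.22, edgeR adjusted p = 3.84e-09) at stage 17. The difference for lbm was -5.40 (SE 0.21) at 24 h ALH and -3.24 (SE 0.25) at stage 17. So the stem cell to neuron gap of Tsp66E and lbm was narrower in the quiescent stage, by the interaction given above.

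Tsp96F measured 19.0 and 13.9 CPM in NSC-like cells at stage 17 and 16.9 and 16.6 CPM at 24 h ALH, against 337 and 289 CPM and 169 and 152 CPM in neurons. Its log2 differences were -4.77 (SE 0.34, edgeR adjusted p = 1.17e-09) at stage 17 and -3.12 at 24 h ALH. Tsp97E was lower in stem cells by -2.56 (SE 0.27) and -2.09 on the log2 scale, from 66.5, 52.2, 36.2 and 37.5 CPM. Tsp42Ef measured 0 and 13.9 CPM at stage 17 and 8.06 and 6.17 CPM at 24 h ALH in NSC-like cells and was lower than in neurons by -4.06 and -2.96. Tsp42Eg measured 28.5 and 3.48 CPM and then 0.109 and 0.298 CPM there, and was lower by -3.42 and -6.83. In every library the neurons lay above the stem cells for these 4 members.

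The members linked to Notch had smaller differences. Tsp86D measured 47.5 and 17.4 CPM in NSC-like cells at stage 17 and 11.3 and 11.3 CPM at 24 h ALH, against 91.3, 54.8, 37.2 and 41.7 CPM in neurons, log2 differences of -1.80 (SE 0.40) and -1.65. Tsp26A measured 19.0, 24.3, 13 and 12 CPM in NSC-like cells and 30.4, 25.5, 21.3 and 28.1 CPM in neurons, and passed at 24 h ALH (-0.83) but not at stage 17. Tsp3A measured 9.5, 13.9, 9.06 and 8.96 CPM against 18.6, 21.9, 20.8 and 21.4 CPM, and likewise passed at 24 h ALH (-1.08) but not at stage 17. The 24 h ALH calls of both were lost without 24 h ALH replicate 1 or replicate 2. None of the 3 was called between the stages in stem cells. In progenitor-like cells at 24 h ALH Tsp86D stood at 61.1 and 67.8 CPM, above the stem cells and the neurons of both libraries.

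Tsp39D was called lower in NSC-like cells at both stages by -0.66 and -0.68, the smallest differences among the lower members. The stage 17 call was lost when any 1 of the 4 libraries was left out, and the 24 h ALH call without 24 h ALH replicate 1 or replicate 2. Tsp47F and Tsp42Ek had no UMI in stage 17 NSC-like cells, which puts them at least 2.61-fold and 3.31-fold lower than in neurons (against 3 counts over the pooled class). Tsp42En had 2 UMIs there, 6.87-fold lower in the pooled counts (95% counting interval 1.89 to 57.0). Without stage 17 replicate 2 there were 8 calls at stage 17 in place of 13, with Tsp86D, Tsp42Eg, Tsp42En, Tsp42Ek and Tsp39D lost, and without stage 17 replicate 1 Tsp47F was lost. At 24 h ALH Tsp42En (0.0272 and 0.149 against 15.1 and 26.2 CPM), Tsp47F (0.109 and 0.0995 against 27.2 and 18.7 CPM), Tsp42Ek (0.109 and 0.0995 against 16.4 and 17.7 CPM) and Tsp42El (1.17 and 1.04 against 12.9 and 17.7 CPM) were also lower, by -7.68, -7.51, -7.0 and -3.59. Tsp5D was lower by -2.89 from 0.0817 and 0.0995 against 1.08 and 0.535 CPM, and did not pass without 24 h ALH replicate 1 or replicate 2.

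**Figure D3:**
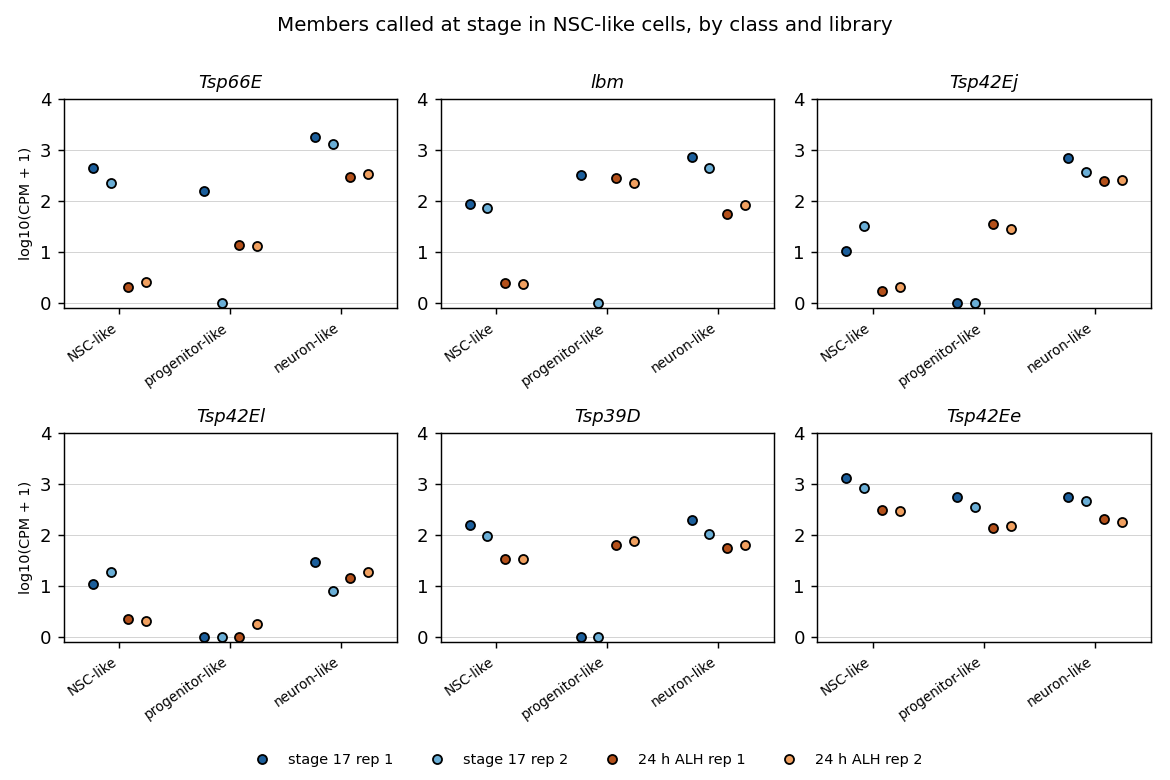
Levels of the 6 members called between stages in NSC-like cells, as log10(CPM + 1) in NSC-like, progenitor-like and neuron-like cells, 1 point for each library (blue for stage 17, orange for 24 h ALH). Tsp66E in NSC-like cells lies at 447 and 229 CPM at stage 17 and at 1.09 and 1.64 CPM at 24 h ALH, and Tsp42Ee lies above the neuron-like cells in the NSC-like cells of both stages.

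Newborn cells between stem cell and neuron were few at stage 17 (5 and 2 progenitor-like cells), so only their 24 h ALH values are given. There lbm measured 288 and 223 CPM (179 and 572 UMIs), above the stem cells at 1.44 and 1.34 CPM and above the neurons at 54.7 and 82.9 CPM in both libraries. Tsp66E, at 12.9 and 12.1 CPM, and Tsp42Ej, at 35.4 and 27.3 CPM, lay between the stem cells and the neurons. No test was run on this class.

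Neurons were split by transmitter genes into 555 cells with ChAT or VAChT (cholinergic), 207 with VGlut (glutamatergic, which include motor neurons in flies) and 236 with Gad1 or VGAT (GABAergic), and 253 cells had no call. Between cholinergic and glutamatergic neurons 2 of 17 tested members were higher in the cholinergic and 4 in the glutamatergic cells (14.0% of genes were called, 5.72% and 8.26%). Tsp42Ef measured 470.1 and 503 CPM at stage 17 and 322 and 237 CPM at 24 h ALH in the VGlut neurons, and 21.6, 13.2, 5.81 and 2.18 CPM in the cholinergic neurons, a log2 difference of -5.51 (SE 0.35, edgeR adjusted p = 2.28e-05). Tsp42Eg measured 275, 294, 143 and 97.7 CPM against 4.80, 24.0, 0.968 and 0.546 CPM, a difference of -4.78 (SE 0.60, edgeR adjusted p = 0.0026). The ranges of the classes did not overlap for either gene. In the VGlut neurons outside the neuron cluster led by twit, given below, the ranges of both genes overlapped the cholinergic ranges.

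Tsp42Ee measured 1002, 1432, 554 and 349.9 CPM in VGlut neurons and 389, 235, 111 and 124 CPM in cholinergic neurons, a log2 difference of -2.03 (SE 0.22, edgeR adjusted p = 0.00041). Tsp42Ej differed by -0.40 (SE 0.11, edgeR adjusted p = 0.021), and that call was lost without stage 17 replicate 1, without stage 17 replicate 2 and without 24 h ALH replicate 2. Tsp39D was higher in cholinergic neurons, with 223, 124, 64.4 and 76.4 CPM against 145, 54.2, 27.9 and 29.5 CPM (log2 difference 1.05, SE 0.15, edgeR adjusted p = 0.00024). In each library the cholinergic value was the higher one.

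Between VGlut and GABAergic neurons 4 members were higher in VGlut neurons and 1 lower (6.37% of genes were called, 3.75% higher and 2.62% lower). They were Tsp42Ef (5.35, SE 0.40), Tsp42Eg (4.59, SE 0.69), lbm (4.19, SE 0.84) and Tsp42Ee (2.04, SE 0.23), with Tsp39D lower (-0.75, SE 0.16). In GABAergic neurons Tsp42Ef measured 17.1, 16.4, 0 and 7.20 CPM, Tsp42Eg 17.1, 23.3, 0 and 0 CPM, Tsp42Ee 281, 229.8, 138 and 138 CPM and Tsp39D 192, 107, 47.0 and 57.6 CPM. In each library the first 3 of these lay below and Tsp39D above the VGlut neurons. For lbm the levels were 1548, 1852, 160.3 and 107 CPM in VGlut neurons and 113, 76.0, 0 and 11.5 CPM in GABAergic neurons, with a higher value in VGlut neurons in each library, but its edgeR adjusted p of 0.04 was lost when any 1 library was left out. Tsp42Eg lost its call without stage 17 replicate 1, and Tsp39D without stage 17 replicate 2. VGlut neurons include cells of the neuron cluster led by twit, described below, in which lbm and Tsp42Ee were also high. The differences of lbm and Tsp42Ee, like those of Tsp42Ef and Tsp42Eg, may not hold for VGlut neurons outside it. Tsp66E measured 1837, 1101, 138 and 287 CPM in VGlut neurons and 1385, 1349, 315 and 402 CPM in GABAergic neurons, overlapping ranges, and was not called between any pair of transmitter classes.

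Between cholinergic and GABAergic neurons 1 of 17 members was called, where 3.57% of genes were (1.90% higher in cholinergic and 1.67% higher in GABAergic neurons). That was Tsp47F, at 312, 11.1, 48.9 and 38.2 CPM in cholinergic neurons (338 UMIs) and at 3.42, 0, 0 and 0 CPM in GABAergic neurons (1 UMI), a pooled ratio of 127 (95% counting interval 22.6 to 5018). It had no UMI in the 207 VGlut neurons, which puts it at least 40.2-fold higher in the cholinergic than in the VGlut cells. Few cells carried it. Of 1251 neuron-like cells 19 held a UMI, and 12 of them held 340 of the 348 UMIs, with 3 to 97 UMIs each and 4, 2, 3 and 3 such cells in the 4 libraries. All 12 lay in the same cluster and 10 were called cholinergic. As a description of cells chosen by this gene, with no test, they were led by sosie (6686 CPM against 17.8 CPM in the 1232 neuron-like cells without a Tsp47F UMI), meru (724 against 1.24 CPM), Kif19A (660.0 against 1.40 CPM), peb (656 against 5.33 CPM) and LamC (833 against 33.9 CPM).

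Tsp42Ef and Tsp42Eg were high in 1 neuron cluster of 105 cells (17, 60, 10 and 18 per library) led by twit, CG14274 and rhea. The comparison of this cluster with the other neuron-like cells was added after the clusters had been seen. It gave 6 members higher and 3 lower of 17 tested (25.9% of genes were called, 13.7% higher and 12.2% lower). Tsp42Ef measured 1137, 774, 592 and 763 CPM in the cluster and 18.7, 29.3, 12.8 and 7.28 CPM in other neurons, a log2 difference of 5.69 (SE 0.36, edgeR adjusted p = 8.64e-05). Tsp42Eg measured 646, 418, 225 and 237 CPM against 15.0, 32.6, 7.0 and 6.70 CPM, a difference of 4.68 (SE 0.31, edgeR adjusted p = 2.19e-05). Tsp42Ee measured 1758, 1226, 496 and 371 CPM against 421, 341, 175 and 163 CPM, a difference of 1.78 (SE 0.14, edgeR adjusted p = 3.75e-07).

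Late bloomer was high in these cells too, with 3567 and 2279 CPM at stage 17 and 157 and 178 CPM at 24 h ALH, against 442, 182, 46.4 and 74.5 CPM in other neurons (log2 difference 2.67, SE 0.47, edgeR adjusted p = 0.023). That call was lost without stage 17 replicate 1 and without 24 h ALH replicate 1. Tsp42En (181, 117, 10.7 and 26.3 against 40.3, 20.3, 15.5 and 26.2 CPM) was higher by 1.66, with a lower value in 24 h ALH replicate 1. Tsp42Ej (1189, 523, 207 and 296 against 651, 354, 249 and 257 CPM) was higher by 0.48, also with a lower value in that library. Both calls were lost without stage 17 replicate 1 and without stage 17 replicate 2, and that of Tsp42Ej also without 24 h ALH replicate 2. Tsp39D (77.6, 42.9, 3.57 and 9.86 CPM against 201, 111, 57.7 and 64.6 CPM) and Tsp97E (146, 138, 114 and 112 against 286, 240.2, 161 and 197 CPM) were lower by -1.68 and -0.65, and Tsp47F had no UMI in the cluster, at least 12.9-fold lower than in the other neurons. Within the VGlut neurons, Tsp42Ef stood at 1148, 913, 592 and 795 CPM in this cluster and at 6.09, 56.6, 64.7 and 25.1 CPM outside it, and Tsp42Eg at 649, 493, 225 and 264 CPM and at 18.3, 77.5, 64.7 and 34.5 CPM.

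**Figure D4:**
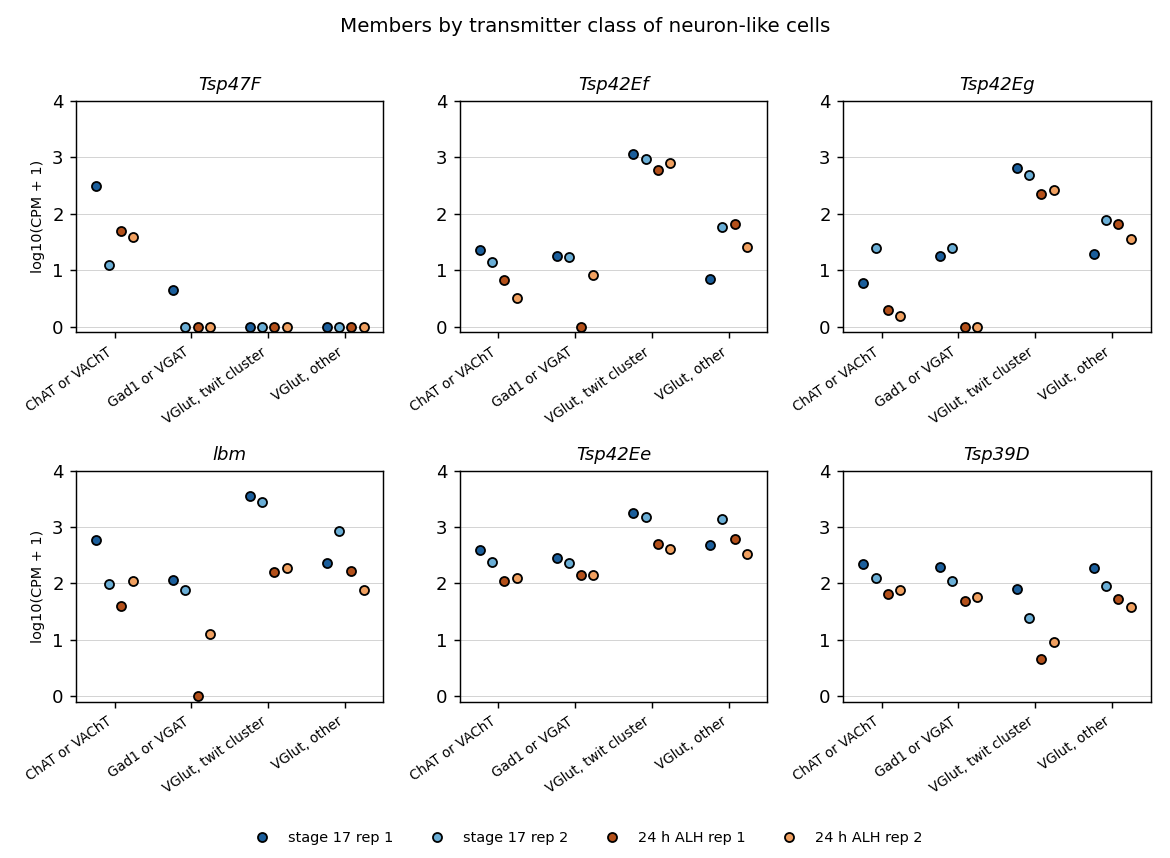
Levels of 6 members as log10(CPM + 1) in cholinergic (ChAT or VAChT), GABAergic (Gad1 or VGAT) and VGlut neurons, the last split into the twit cluster and the rest, 1 point for each library. Tsp42Ef and Tsp42Eg lie highest in the VGlut neurons of the twit cluster, with 592 to 1148 CPM and 225 to 649 CPM, and Tsp47F lies at 0 in the VGlut neurons.

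In glia-like cells, against neurons of the same libraries, 5 of 19 tested members were higher and 4 were lower (31.7% of genes were called, 19.6% higher and 12.1% lower). The median log2 difference of the members was -0.71. Tsp42Ea measured 2299, 1041, 83.2 and 56.5 CPM in glia-like cells and 17.8, 26.6, 6.47 and 0.802 CPM in neurons, a log2 difference of 5.74 (SE 0.68, edgeR adjusted p = 0.0025). Tsp5D measured 304, 132, 94.8 and 30.9 CPM against 0.845, 3.51, 1.08 and 0.535 CPM, a difference of 6.38 (SE 0.53, edgeR adjusted p = 0.00088). In every library both genes were far higher in glia, and both calls held in every alternative that was run.

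The glia formed 2 clusters, 1 of 79 cells led by CG7409, CG13445 and CG15203 and 1 of 56 cells led by Obp99a, CG9686 and Obp44a. Tsp42Ea was high in both, with 2762, 1483, 110.4 and 61.3 CPM in the first and 1433, 650.0, 43.1 and 32.4 CPM in the second. Tsp42El measured 279.8, 134, 279 and 54.8 CPM in the first and 13.4, 49.7, 9.57 and 0 CPM in the second. Tsp42Eg measured 538, 627, 35.7 and 40.3 CPM in the first and 13.4, 95.6, 0 and 0 CPM in the second. So Tsp42El and Tsp42Eg lay higher in the first cluster in every library, a difference that was not tested.

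Over all glia-like cells Tsp42El was higher than in neurons by 3.18 (SE 0.43, edgeR adjusted p = 0.0035), Tsp42Ei by 4.57 (SE 0.80) and Tsp42Ee by 1.26 (SE 0.27, edgeR adjusted p = 0.018). Tsp39D (32.7, 42.6, 19.3 and 4.03 CPM in glia-like cells), Tsp97E (79.4, 95.4, 17.4 and 37.7 CPM) and Tsp86D (51.4, 24.3, 19.3 and 12.1 CPM) were lower by -1.86, -1.81 and -0.90, in every library. Tsp47F had no UMI in glia-like cells, at least 13.99-fold lower than in neurons. Tsp66E and Tsp42Ej were not called between glia and neurons, and the part of the neuronal marker RNA in the stage 17 glia-like cells was not tested. Without stage 17 replicate 1 there were 3 calls and without 24 h ALH replicate 2 there were 5, in place of 9. Tsp42Ee, Tsp97E and Tsp39D were lost in both of these, Tsp42Ei without stage 17 replicate 1 or 24 h ALH replicate 1, Tsp47F without stage 17 replicate 1, and Tsp86D when any 1 of the 4 libraries was left out.

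The cuticle cells had 5 members above and 9 below the neuronal level of 20 tested (43.5% of genes were called, 20.9% above and 22.6% below), with a median of -0.83 on the log2 scale. Tsp74F measured 81.2, 162, 7.98 and 46.1 CPM (14, 78, 4 and 15 UMIs) in cuticle cells against 0, 0.781, 0.270 and 0 CPM in neurons, a log2 difference of 7.80 (SE 0.70, edgeR adjusted p = 0.00014), and it had no UMI in glia-like cells. Tsp42Ea, at 1136, 678, 104 and 258 CPM, was higher than in neurons by 5.80 (SE 0.75, edgeR adjusted p = 0.00068), as in glia. Tsp42El measured 116, 237, 53.9 and 147 CPM, a difference of 3.35 (SE 0.58, edgeR adjusted p = 0.0025). Each of these was higher in the cuticle cells in every library.

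Tsp42Ei and Tsp68C were called higher from few molecules (98.6, 14.6, 0 and 0 CPM, and 23.2, 4.16, 0 and 15.4 CPM), and the Tsp42Ei call was lost without stage 17 replicate 1 and without stage 17 replicate 2. Other members were lower than in neurons, Tsp96F by -4.55 (SE 0.64), Tsp42Ej by -3.90 (SE 0.79), lbm by -3.03 (SE 0.46), Tsp66E by -2.90 (SE 0.46), Tsp97E by -2.38 (SE 0.38), Tsp42Ek by -2.26 (SE 0.71) and Tsp86D by -1.66 (SE 0.42). Their levels in the cuticle cells were 29.0, 14.6, 2.00 and 0 CPM for Tsp96F, 92.8, 45.7, 0 and 6.14 CPM for Tsp42Ej, 52.2, 85.2, 2.00 and 9.21 CPM for lbm, and 319, 91.5, 57.9 and 18.4 CPM for Tsp66E. Tsp97E measured 63.8, 41.6, 21.9 and 18.4 CPM, Tsp42Ek 0, 10.4, 0 and 3.07 CPM and Tsp86D 17.4, 8.32, 12 and 18.4 CPM, and each of the 7 lay below the neurons in every library. Tsp47F and Tsp42En had 1 and 2 UMIs in the cuticle cells, pooled ratios of 31.6 (95% counting interval 5.63 to 1251) and 21.1 (5.80 to 174) in favour of neurons. The Tsp42Ek call was lost without 24 h ALH replicate 1, without 24 h ALH replicate 2 and without stage 17 replicate 1.

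**Figure D5:**
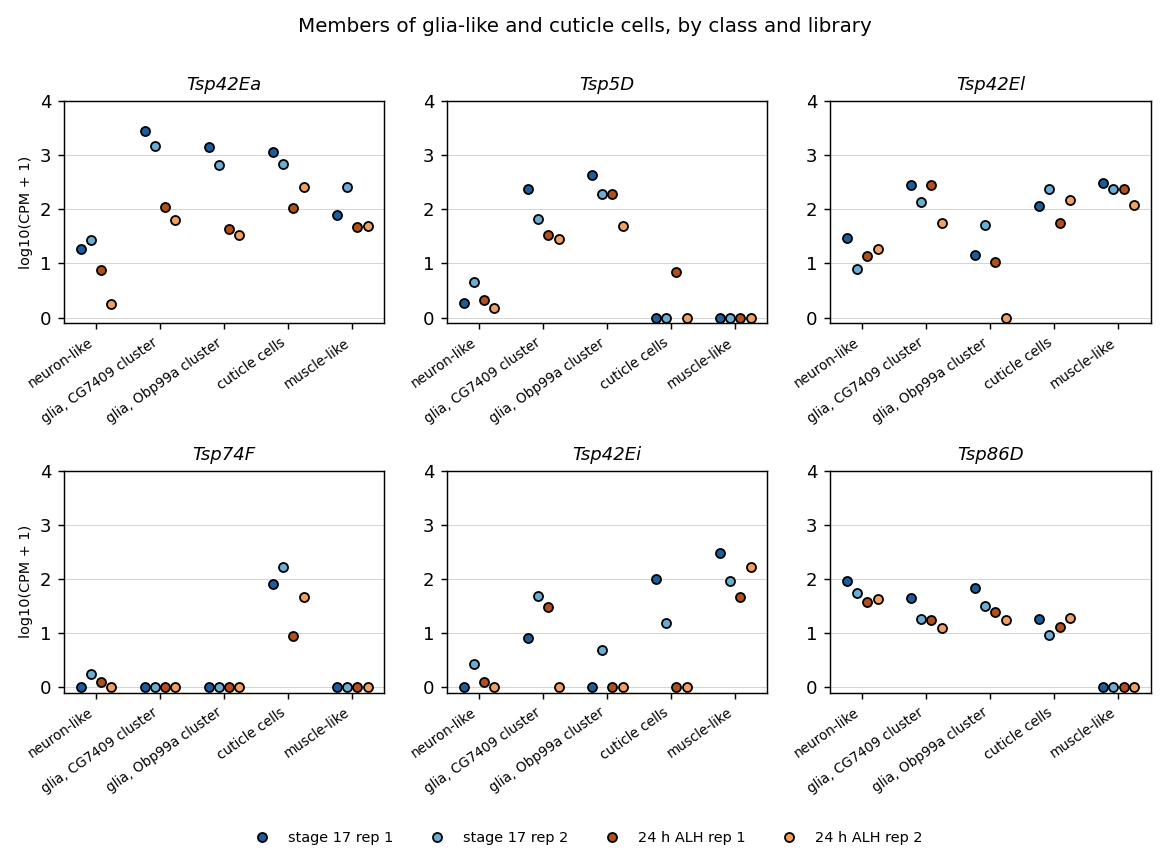
Levels of 6 members as log10(CPM + 1) in neuron-like cells, the glial clusters of 79 cells (led by CG7409) and 56 cells (led by Obp99a), cuticle cells and muscle-like cells, 1 point for each library. Tsp42Ea is high in both glial clusters and in cuticle cells, Tsp5D in both glial clusters, and Tsp74F in cuticle cells at 7.98 to 162 CPM.

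Genes of 4 groups that tetraspanins are known to work with were counted in the same fits. Of the integrin genes, which encode the receptors of cells for their matrix, 3 of 4 tested (mys, if and scb) were higher in glia-like than in neuron-like cells, by 1.89, 3.35 and 4.98 on the log2 scale, where 19.6% of all genes were, and the same 3 were higher in cuticle cells by 1.5, 3.97 and 4.42, where 20.9% were. Against neuron-like cells, 1 of 3 tested integrins was lower in NSC-like cells at stage 17 and 2 of 3 at 24 h ALH. Among all genes 27.0% and 36.6% were lower there. Both integrins tested between transmitter classes, mys and mew, were lower in cholinergic than in VGlut neurons (-1.16 and -2.11), as were 8.26% of genes. Both were higher in the twit cluster than in other neurons (1.44 and 2.43), as were 13.7% of genes. Between stages in NSC-like cells the only integrin tested was not called. In neuron-like cells 1 of 3 was higher at stage 17, as were 12.7% of all genes.

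Of the genes of the Kuzbanian and Notch list, 7 were tested between stages in NSC-like and in neuron-like cells, and 7 between these classes. In glia-like and in cuticle cells 5 were tested between stages, and none was called. At stage 17 kuz was higher in NSC-like cells (0.76) and in neuron-like cells (0.81), as were 18.2% and 12.7% of all genes. Dl and Psn were lower at stage 17 in NSC-like cells (-0.78 and -2.23), as were 17.8% of all genes. Against neurons at stage 17, N and Dl were higher in the NSC-like cells (4.22 and 3.42), as were 18.3% of all genes. There kuz and Tace were lower (-1.39 and -3.53), as were 27.0% of all genes. Of the septate junction list 4 of 6 tested were higher at stage 17 in NSC-like cells (cora 2.30, Nrx-IV 1.65, kune 1.55 and Lac 0.88) and 4 of 6 in glia-like cells (kune 3.20, sinu 3.09, Mcr 3.07 and Nrx-IV 2.32), where 18.2% and 8.05% of all genes were. In neuron-like cells 1 of 7 was higher at stage 17 (kune, 1.06), where 12.7% of all genes were. Against neuron-like cells, 1 of 7 was higher and 1 lower in NSC-like cells at stage 17, where 18.3% and 27.0% of all genes were. At 24 h ALH 1 was higher and 6 were lower, where 40.5% and 36.6% of all genes were. Of 10 genes of multivesicular bodies, the endosomes that release exosomes, Vps4 and Rab7 were higher at stage 17 in NSC-like cells (1.34 and 1.33). Rab35 was lower (-0.72). In this comparison 18.2% of all genes were higher and 17.8% lower.

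The 3 members with the most molecules were also matched with other genes over 34 sums of class and library, as a description of sums that share libraries and depth. Among 4870 genes, the highest Pearson correlation of log2(CPM + 1) with Tsp42Ee was that of Wbp2 (0.84), followed by Chmp1, CG42394, Rab7 and vsg. With Tsp66E it was that of Rop (0.92), followed by Vha55, Ih, Vha36-1 and trv. With lbm it was that of CG5151 (0.82), followed by Flo2, Vps24, Glut4EF and rhea.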

How the data were processed

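The authors deposited, for each library, the UMI counts per gene and cell made with Cell Ranger 3 on dm6, per the labels. Here the filter kept cells with 200 to 6000 detected genes and with mitochondrial counts of 5% or less. The libraries were integrated and clustered in Seurat 5.3.0 (R 4.3.3) with 2000 features, from which the 17 members among them were removed, 30 dimensions and resolution 0.5, giving 18 clusters. A cluster was named from the marker list with the largest lead, with at least 3 markers detected, and clusters with no such lead stayed unnamed. Transmitter classes needed at least 2 UMIs of 1 marker set and 3 times the UMIs of the other sets. Scrublet marked 39 doublets (5, 8, 15 and 11), which were kept. Counts were summed per library and class, sums under 5 cells were not fitted, and edgeR 4.0.16 was used with TMM factors and library as a block for class comparisons. DESeq2 1.42.0 was an alternative. Steps were tested on simulated data. Every member called in a comparison, or among its 5 highest, was to be given by library. The members and lists were chosen with earlier results of these data known. Intervals and floors cover counting error only (95%, exact, and 3 counts for 0). Gene positions came from Ensembl BDGP6 release 115.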

Additional observations from a re-analysis of the deposited data

Results flagged for a closer look

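A difference between groups drew attention to 5 members, whose excess at stage 17 over 24 h ALH was not the same in NSC-like and neuron-like cells by the interaction test of edgeR. On the log2 scale, the excess in NSC-like cells minus that in neuron-like cells was 4.98 for Tsp66E, 3.47 for Tsp42El, 3.36 for Tsp42Ej, 2.15 for lbm and -1.66 for Tsp96F. The stage 17 NSC-like values rest on 113, 6, 10 and 30 UMIs of Tsp66E, Tsp42El, Tsp42Ej and lbm in 53 cells.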

How the results depend on the processing

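Over 103 calls of a member in a comparison, 1370 refits under other settings kept 1160 on the same side of the threshold and in the same direction, 208 lost the call and 2 changed direction, both with single cells gated on markers in place of clusters. These were Tsp39D in NSC-like against neuron-like cells at stage 17 (0.16 in place of -0.66 on the log2 scale, edgeR adjusted p = 0.609) and the interaction of Tsp96F (0.67 in place of -1.66, edgeR adjusted p = 0.164). Refits in which a called member fell under the filter on low counts are not among the 1370. With cells thinned to 1000 UMIs 69 of the 103 calls could be refitted, and with finer clusters 95. Among the classes fitted, depth limits the stage 17 stem cells most (105218 and 287611 UMIs), and there a member under about 3 counts cannot be told from 0. Causes of the changes below were not tested, and the share of all genes called under each setting is not given beside the counts. A changed count can therefore reflect the members or all genes alike.

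With cells thinned to 1000 UMIs fewer members passed the filter on low counts, and the number called was 1 of 1 tested between stages in NSC-like cells, 4 of 10 in neuron-like cells and 4 of 5 in glia-like cells, 9 of 10 for NSC-like against neuron-like cells at 24 h ALH, 0 of 10 for the interaction, 7 of 11 for cuticle against neuron-like cells, 3 of 9 for cholinergic against VGlut, 0 of 9 for cholinergic against GABAergic and 4 of 10 for the twit cluster. With the marker gate it was 12 between stages in NSC-like cells, 11 for the interaction, 4 for glia-like against neuron-like cells, 3 for VGlut against GABAergic and 2 for the twit cluster (cells with a twit UMI). With DESeq2 it was 4 between stages in cuticle cells, 14 for glia-like against neuron-like cells and 2 for cholinergic against GABAergic neurons. With no filter on low counts it was 9 between stages in cuticle cells and 2 for cholinergic against GABAergic neurons. With finer clusters it was 0 for cholinergic against GABAergic neurons and 5 for the twit cluster.

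Without the library as a block the count was 3 for glia-like against neuron-like cells, 2 for cholinergic against VGlut, 0 for cholinergic against GABAergic, 2 for VGlut against GABAergic and 2 for the twit cluster. Replicate numbers of the labels are shared by the stages but name no common animal or day, and same-numbered libraries correlated by -0.031, 0.023, 0.178 and -0.016 in NSC-like, neuron-like, glia-like and cuticle cells. A fit with this replicate number as a block called 6, 10, 11 and 0 members between the stages.

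With each library left out in turn, the count ran from 3 to 6 between stages in NSC-like cells, 4 to 14 in neuron-like, 0 to 6 in glia-like and 0 to 0 in cuticle cells. It ran from 8 to 11 for NSC-like against neuron-like cells at stage 17, 12 to 18 at 24 h ALH, 2 to 6 for the interaction, 3 to 9 for glia-like and 11 to 12 for cuticle against neuron-like cells. It ran from 5 to 6, 1 to 2 and 3 to 4 for cholinergic against VGlut, cholinergic against GABAergic and VGlut against GABAergic neurons, and 6 to 8 for the twit cluster. Leaving out the neuron cluster of 1 library, an alternative chosen after seeing the data like the twit comparison and its settings, moved no count by over 1.5 times.

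The summed family level moved to 2600 CPM (stage 17) and 457 CPM (24 h ALH) in NSC-like cells, 1307 CPM in neuron-like cells at 24 h ALH, 459 CPM in glia-like cells at 24 h ALH and 3799 CPM in cuticle cells at stage 17 with the marker gate. With thinning it moved at 24 h ALH to 1369 CPM in neuron-like, 1262 CPM in glia-like and 515 CPM in cuticle cells.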

Other observations

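A cluster of 24 cells (4, 10, 5 and 5 per library) led by CG7290, CG5804 and CCHa2, which stayed unnamed, held 76 of the 223 UMIs of Tsp2A in all kept cells, 124 of 262 of Tsp29Fb, 58 of 107 of Tsp29Fa and 32 of 176 of Tsp42Ed. Tsp2A, a protein of smooth septate junctions, measured 403 and 694 CPM at stage 17 and 6.28 and 133 CPM at 24 h ALH in these cells. Tsp29Fb measured 906, 1086, 31.4 and 99.4 CPM, Tsp29Fa 369, 479.8, 18.8 and 99.4 CPM, and Tsp42Ed 369, 189, 0 and 99.4 CPM. All 4 genes were lowest in 24 h ALH replicate 1. Muscle-like cells, which numbered 11, 10, 2 and 6, held Tsp42Eg at 762, 345, 185 and 497 CPM, Tsp42Ei at 305, 90.7, 46.1 and 166 CPM and Tsp42El at 305, 236, 231 and 118 CPM.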
